A study of Mus musculus with 8 samples.

Results

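Mucins are heavily O-glycosylated proteins, and the families of Golgi enzymes described here build and finish the sugar chains on them. The genes were taken by name, as all protein-coding mouse genes whose symbol begins with Muc, Galnt, B3gnt, B4galt, Gcnt or St3gal and a digit, or with St6galnac, together with C1galt1 and its chaperone C1galt1c1. This gave 63 genes, 12 mucins and 51 enzymes, of which 50 were among the 16341 genes of the count table. A row was used for 9 mucins and 41 enzymes, and the other 13 genes (Muc3, Muc3a, Muc16, B3gnt5, B3gnt8, Galnt5, Galnt13, Galnt14, Gcnt4, Gcnt7, St6galnac1, St6galnac3 and St6galnac5) were not analysed here.

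The libraries compared came from 4T1, a mouse mammary carcinoma line. Cells bearing the surface protein SCA1, the product of Ly6a, were parted from cells lacking it on magnetic columns after staining with an antibody, which gave the groups 4T1-Sca1+ and 4T1-Sca1- with 4 libraries each. Both groups carry a CD45-negative gate in the labels, and neither received a treatment that the labels name. The source label gives parental 4T1 as the origin of the cells, the protocol speaks of stained tumor, and both descriptions share a single line. The labels do not tell whether replicates were separate sorts, so the p-values measure the spread between these libraries, which may be technical.

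The 4T1-Sca1+ libraries held between 15041995 and 16968215 counts, and the 4T1-Sca1- libraries between 13561804 and 16142836. The sorted gene went with the labels: Ly6a had 167 ± 20.2 normalized counts (SD, n = 4) in 4T1-Sca1+ and 1.79 ± 1.73 in 4T1-Sca1-. A normalized count is a count divided by the size factor of its library. Of the 8 mammary epithelial markers, all were detected in both groups, and their summed normalized counts were 53995 to 59811 in 4T1-Sca1+ and 52527 to 57018 in 4T1-Sca1-. Single markers moved both ways, with 2 higher in 4T1-Sca1+, Krt18 (log2 fold change 0.38) and Krt8 (0.31), and 3 lower, among them Cldn3 (-0.37) and Elf3 (-0.34).

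O-glycosylation of the mucin type starts in the Golgi, where a Galnt enzyme places an N-acetylgalactosamine on a serine or threonine. C1galt1 adds galactose to make core 1, a step that needs the chaperone C1galt1c1 (Cosmc), and Gcnt1 turns core 1 into the branched core 2. B3gnt and B4galt enzymes lengthen the chain with N-acetylglucosamine and galactose, and sialyltransferases of the St3gal and St6galnac families close it with sialic acid. Names do not follow substrates throughout, because B4galt7 acts on proteoglycan linkers and St3gal5 on a glycolipid. Mucins are of 2 sorts, those that span the membrane, such as Muc1 and Muc4, and those secreted as gels, such as Muc2 and Muc5ac.

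Promoters of 5 genes are shown because their transcripts carry the findings below: the mucins Muc1 and Muc4, the enzymes St3gal3 and B4galt5, which were higher in 4T1-Sca1+, and Galnt3, which was lower. Each runs from 250 bases before to 50 after the start of the gene in RefSeq on GRCm38.p6 and is written 5′ to 3′ on the strand of the gene. Capitals mark the GC box GGGCGG and the TATA box TATAAA, read on both strands, so a GC box on the other strand appears as CCGCCC. The windows lie at chr3:89228806-89229105 (+) for Muc1, chr16:32735636-32735935 (+) for Muc4, chr4:118134897-118135196 (-) for St3gal3, chr2:167349129-167349428 (-) for B4galt5 and chr2:66124744-66125043 (-) for Galnt3.
Muc1: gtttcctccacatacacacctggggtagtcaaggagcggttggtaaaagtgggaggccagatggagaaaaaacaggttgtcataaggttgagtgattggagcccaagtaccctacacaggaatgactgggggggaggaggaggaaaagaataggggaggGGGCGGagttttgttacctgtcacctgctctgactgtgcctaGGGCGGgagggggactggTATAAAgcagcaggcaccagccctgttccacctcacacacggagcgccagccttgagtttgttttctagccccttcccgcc
Muc4: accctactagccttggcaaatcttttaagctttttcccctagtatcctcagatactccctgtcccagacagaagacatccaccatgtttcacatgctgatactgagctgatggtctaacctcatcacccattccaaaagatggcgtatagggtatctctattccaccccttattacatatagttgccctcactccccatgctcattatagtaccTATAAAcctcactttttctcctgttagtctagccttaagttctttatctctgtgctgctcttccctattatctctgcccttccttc
St3gal3: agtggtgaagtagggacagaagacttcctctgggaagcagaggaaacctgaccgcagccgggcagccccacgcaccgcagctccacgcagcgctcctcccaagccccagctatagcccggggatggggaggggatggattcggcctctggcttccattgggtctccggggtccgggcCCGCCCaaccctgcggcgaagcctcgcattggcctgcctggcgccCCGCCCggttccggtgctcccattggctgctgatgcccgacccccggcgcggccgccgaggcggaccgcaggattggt
B4galt5: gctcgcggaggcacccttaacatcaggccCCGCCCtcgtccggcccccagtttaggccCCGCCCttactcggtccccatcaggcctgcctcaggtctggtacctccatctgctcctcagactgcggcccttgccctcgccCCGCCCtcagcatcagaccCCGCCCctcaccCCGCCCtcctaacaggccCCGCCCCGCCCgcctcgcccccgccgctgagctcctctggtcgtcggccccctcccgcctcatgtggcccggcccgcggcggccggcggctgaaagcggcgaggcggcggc
Galnt3: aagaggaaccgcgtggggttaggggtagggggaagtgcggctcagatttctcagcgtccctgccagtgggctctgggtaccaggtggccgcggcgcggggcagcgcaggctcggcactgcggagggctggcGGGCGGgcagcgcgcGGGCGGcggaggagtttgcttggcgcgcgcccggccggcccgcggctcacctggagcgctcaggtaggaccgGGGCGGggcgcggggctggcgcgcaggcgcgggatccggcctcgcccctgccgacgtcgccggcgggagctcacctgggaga

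The 2 mucin promoters each held 1 TATA box, at -31 in Muc1 and at -36 in Muc4, counted from the start of the gene. Muc1 also held 2 GC boxes and 6 CpG dinucleotides, whereas Muc4 held 0 GC boxes and 1 CpG in a window of 43.7% G and C. The 3 enzyme promoters held no TATA box and were rich in G and C, with 70% in St3gal3, 75.0% in B4galt5 and 76.7% in Galnt3. B4galt5 had 7 GC boxes, Galnt3 had 3 and St3gal3 had 2, beside 4 CCAAT boxes (CCAAT on either strand) in St3gal3.

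Promoters on chromosome 18, where the tested genes Galnt1 and B4galt6 lie, were left out. Over the other 32851 RefSeq promoters of the same length, 35.7% held a GC box and 13.6% a TATA box. RefSeq promoters were matched by symbol for 25 of the 35 genes tested, some with more than 1 start, which gave 31 promoters. A GC box stood in 9 of the 16 promoters of genes higher in 4T1-Sca1+, in 3 of the 4 of genes lower and in 7 of the 11 of genes not called. A TATA box stood in 3 of the 16, those of Muc1, Muc4 and Gcnt1, and in 0 of the 4 and 0 of the 11. A STAT motif (TTCNNNGAA), present in 8.30% of the 32851 promoters, was in 1 of the 16, 0 of the 4 and 1 of the 11. These matches describe letters in a window and say nothing of binding.

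Of the 50 genes with counts, 35 passed the filter on low counts and were tested with edgeR's quasi-likelihood test, with Benjamini-Hochberg adjustment over all 11717 genes tested. Transcripts of 20 were higher in 4T1-Sca1+, 4 were lower and 11 were not called at an adjusted p under 0.05. Much of the transcriptome differed between the groups: 61.5% of all genes tested were called, 31.3% higher and 30.2% lower. The median log2 fold change (4T1-Sca1+ over 4T1-Sca1-) was 0.22 over the 35 genes and 0.0074 over all genes tested. The groups did not overlap in normalized counts for 23 of the 35, against 54.7% of all genes tested. At 1.5-fold or more, 10 of the 35 were higher, where 11.7% of all genes were, and 0 were lower, where 4.08% were. At 2-fold or more, 4 were higher, where 5.22% of all genes were. Among those 4, Muc4, Galnt15 and Gcnt1 passed the filter through the 4T1-Sca1+ libraries. The counts of genes higher at every threshold, the number without overlap and the median over the 35 genes include them. None of these values is therefore free of the filter.

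**Figure D1:**
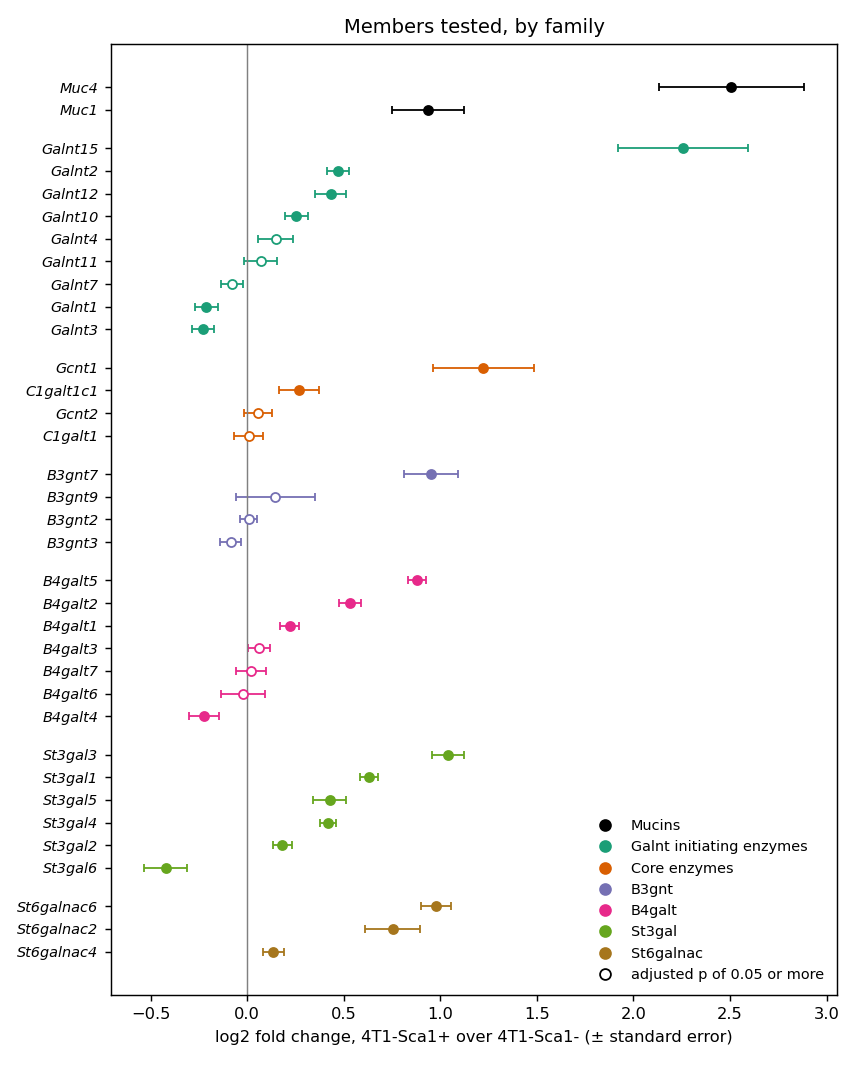
Log2 fold change of 4T1-Sca1+ over 4T1-Sca1- for each of the 35 genes tested, grouped by family, with 4 libraries a group. Points are edgeR estimates, bars are ± standard error, and open points had an adjusted p of 0.05 or more. Muc4 and Galnt15 stand farthest to the right at 2.51 and 2.26, and St3gal6 farthest to the left at -0.42.

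Both mucins tested were higher in 4T1-Sca1+. Muc1 (ENSMUSG00000042784, chr3:89229057-89233381, + strand, GRCm38), a transmembrane mucin of glandular epithelium, had 40.2, 53.3, 52.9 and 44.6 normalized counts in 4T1-Sca1+ replicates 1 to 4 and 32.5, 23.6, 20 and 22.8 in 4T1-Sca1- replicates 1 to 4. Every 4T1-Sca1+ library was above every 4T1-Sca1- library, and the nearest pair was replicate 1 of each. The log2 fold change was 0.94 ± 0.19 (SE; adjusted p = 0.000305, edgeR). The study put Muc1 into its Sca1-positive signature from these same libraries, so this direction is not independent evidence of that signature.

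Muc4 (ENSMUSG00000079620, chr16:32735886-32782391, + strand), a large transmembrane mucin that binds the receptor ERBB2, was scarce in both groups. It had 15, 14, 16 and 27 counts in the 4T1-Sca1+ libraries and 2, 3, 3 and 3 in the 4T1-Sca1- libraries. The groups were apart, although replicate 4 of 4T1-Sca1+ held most of the spread. The log2 fold change was 2.51 ± 0.38 (adjusted p = 1.75e-05, edgeR). From the summed counts, 72 against 11, the ratio was 5.84 with an exact 95% interval of 3.08 to 12.2, which covers counting error only. Muc4 passed the low-count filter only through the 4T1-Sca1+ libraries and therefore had to differ to be tested at all. This also holds for the enzyme Galnt15. The enzyme Gcnt1 likewise needed its 4T1-Sca1+ libraries to pass that filter.

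The other 7 mucins counted were below the filter. Muc20, a transmembrane mucin encoded next to Muc4 on the opposite strand, had 3, 5, 7 and 6 counts in the 4T1-Sca1+ libraries and 0 in each 4T1-Sca1- library. Against a floor of 3 counts over the 4T1-Sca1- group, the 21 counts in 4T1-Sca1+ gave a ratio of 6.25 for Muc20. The 21 counts were taken without counting error, so this ratio is not a lower limit. With no filter it was called higher (adjusted p = 0.000106, edgeR). The annotated exons of Muc4 and Muc20 share 627 bases on opposite strands, the library kit does not mark strand, and reads from that stretch cannot be told apart. The remaining transmembrane mucins summed to 8 counts against 1 (Muc15) and 3 against 0 (Muc13). Among the gel-forming mucins, Muc2 summed to 8 against 3, Muc5ac to 4 against 0, Muc6 to 1 against 1 and Muc5b to 0 against 1. Differences in these 6 were not detectable at this depth. Muc19, annotated as a processed transcript and hence outside the rule, had 3, 1, 4 and 1 counts in 4T1-Sca1+ and 0, 2, 0 and 0 in 4T1-Sca1-.

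**Figure D2:**
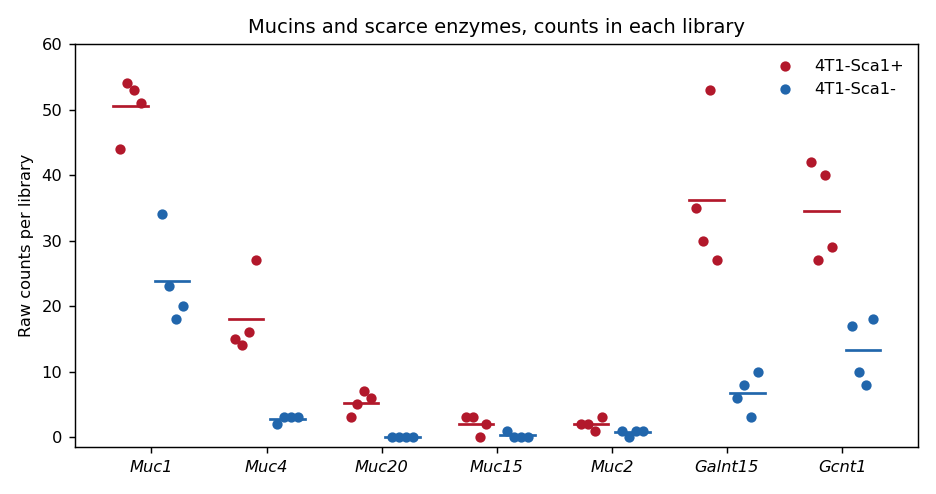
Raw counts per library of 5 mucins and 2 scarce enzymes in 4T1-Sca1+ (red) and 4T1-Sca1- (blue), with 4 libraries a group. Points are libraries and lines are group means. Muc1, Muc4, Muc20, Galnt15 and Gcnt1 do not overlap between groups, whereas Muc15 and Muc2 stay at 3 counts or fewer.

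To set levels of different genes side by side, counts were also scaled by exon length and library size, as reads per kilobase of exon (RPKM). On this scale the 9 mucins summed to 1.60 ± 0.188 in 4T1-Sca1+ and 0.722 ± 0.157 in 4T1-Sca1- (SD, n = 4), under each of the 5 enzyme families summed, which began at 14.3 (St6galnac in a 4T1-Sca1- library). Muc1 held 82.0 to 85.7% of the mucin sum in 4T1-Sca1+ libraries and 94.3 to 97.5% in 4T1-Sca1- libraries. Of 14 goblet cell and mucin secretion genes listed, 8 had counts, among them Spdef, and none of these passed the filter. They summed to at most 11.8 normalized counts in any library.

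Among the Galnt enzymes, which start the chain, 9 were tested, 4 were higher in 4T1-Sca1+, 2 were lower and 3 were not called. This and each family count below stand beside 31.3% higher and 30.2% lower over all genes tested. Galnt15 (ENSMUSG00000021903, chr14:32028989-32062197, + strand) had the largest change of any enzyme tested. Its counts were 35, 30, 53 and 27 in 4T1-Sca1+ and 6, 8, 3 and 10 in 4T1-Sca1-, and the groups did not overlap. The log2 fold change was 2.26 ± 0.34 (adjusted p = 1.75e-05, edgeR). Galnt15 is in the study's Sca1-positive signature, which was chosen on these libraries.

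Galnt2, a widely expressed initiating enzyme, was the most abundant member of the family. It rose by 0.47 on the log2 scale, from 3016 ± 210 normalized counts in 4T1-Sca1- to 4141 ± 273 in 4T1-Sca1+. Galnt12 rose by 0.43 and Galnt10, which prefers peptides that already carry a sugar, by 0.26. Galnt1 and Galnt3, the next most abundant, moved the other way. Galnt1 decreased by 0.21 and Galnt3, known for protecting the hormone FGF23 from cleavage, by 0.23. With GC-corrected offsets these changes shrank to 0.38 for Galnt2, 0.35 for Galnt12, 0.13 for Galnt10, -0.11 for Galnt1 and -0.12 for Galnt3. All were still called (adjusted p from 9.83e-10 to 0.0272, edgeR). The 3 enzymes not called were Galnt4 (0.15), Galnt11 (0.07) and Galnt7 (-0.08), with adjusted p between 0.172 and 0.498 in edgeR. With GC-corrected offsets Galnt4 was called higher, at 0.22 (adjusted p = 0.0215).

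The opposite moves of the abundant Galnt genes went with a different make-up of the family. Summed Galnt RPKM was 136 ± 1.82 in 4T1-Sca1+ and 122 ± 3.31 in 4T1-Sca1-, with no overlap between groups. Galnt2 made up 44.9 to 50.7% of that sum in 4T1-Sca1+ libraries and 35.6 to 40.0% in 4T1-Sca1- libraries. Galnt1 made up 12.8 to 16.1% against 18.4 to 19.8%, and Galnt3 13.7 to 16.4% against 18.4 to 21.1%. None of these 3 shares overlapped between groups. RPKM was not corrected for GC content, which was 55.5% in Galnt2 transcripts, 43.6% in Galnt1 and 43.4% in Galnt3. Galnt6, Galnt9, Galnt16, Galnt17 and Galnt18 were below the filter, with summed counts of 4, 4, 3, 1 and 0 in 4T1-Sca1+ and 0, 0, 2, 0 and 1 in 4T1-Sca1-.

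**Figure D3:**
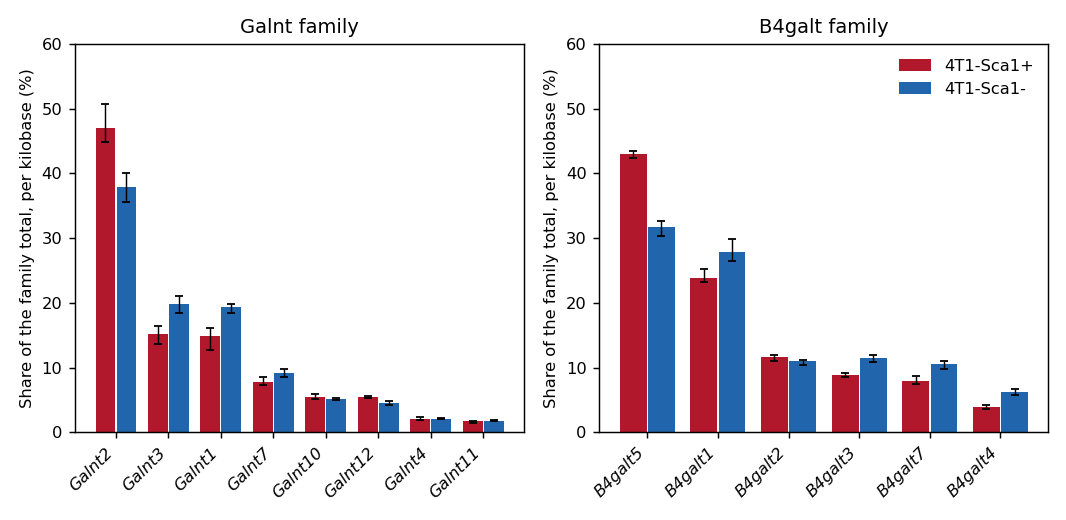
Share of each gene in the summed RPKM of the Galnt family (left) and the B4galt family (right), in percent, for genes above 1% in 4T1-Sca1+. Bars are means of 4 libraries and whiskers run from the lowest to the highest library. Galnt2, Galnt12 and B4galt5 have a larger share in 4T1-Sca1+, and Galnt1, Galnt3, B4galt1, B4galt3, B4galt4 and B4galt7 a smaller one, although B4galt1 itself was higher in 4T1-Sca1+.

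Of the enzymes that set the core, 4 were tested, 2 were higher and 2 were not called. C1galt1 (ENSMUSG00000042460, chr6:7844842-7875687, + strand), the core 1 synthase, had 409, 460, 396 and 481 normalized counts in 4T1-Sca1+ and 426, 415, 439 and 477 in 4T1-Sca1-. The groups overlapped, and the log2 fold change was 0.01 ± 0.07 (adjusted p = 0.936, edgeR). Its sign turned with DESeq2 size factors (-0.0053), and with GC-corrected offsets it was called higher, at 0.16 (adjusted p = 0.0373). C1galt1c1 (ENSMUSG00000048970, chrX:38630785-38635087, - strand) had 202, 148, 155 and 173 against 142, 142, 146 and 140. Replicate 1 of 4T1-Sca1+ was the highest library, and the lowest 4T1-Sca1+ library was only just above the highest 4T1-Sca1- library. The log2 fold change of 0.27 ± 0.10 (adjusted p = 0.0332, edgeR) fell to 0.17 (adjusted p = 0.157) without that replicate. The call was also lost without replicate 4 of 4T1-Sca1+ or any one 4T1-Sca1- library, at 0.25 to 0.28 (adjusted p from 0.0538 to 0.0739). With GC-corrected offsets it was 0.42 (adjusted p = 0.000553).

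Gcnt1 (ENSMUSG00000038843, chr19:17326141-17372844, - strand), which branches core 1 into core 2, had 42, 27, 40 and 29 counts in 4T1-Sca1+ and 17, 10, 8 and 18 in 4T1-Sca1-. The groups did not overlap, and the log2 fold change was 1.22 ± 0.26 (adjusted p = 0.000625, edgeR). Only 3 of its 4T1-Sca1- libraries reached 10 counts, so Gcnt1 passed the low-count filter through the 4T1-Sca1+ libraries, which favors a higher call. Gcnt2, which branches the I antigen, was not called (0.06, adjusted p = 0.524). Gcnt3, the core 2 and core 4 enzyme of mucous tissue, summed to 14 counts against 11, and B3gnt6, the core 3 synthase, to 11 against 10.

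Ratios of counts within a library do not depend on how libraries are scaled. Gcnt1 stood to C1galt1 at 0.0938, 0.0579, 0.101 and 0.0527 in the 4T1-Sca1+ libraries and at 0.0381, 0.0248, 0.0203 and 0.0431 in the 4T1-Sca1- libraries. Every 4T1-Sca1+ ratio was above every 4T1-Sca1- ratio, with a mean log2 difference of 1.28. Its two-sided exact permutation p was 0.0286, the smallest that 4 against 4 libraries allow, and 0.0857 after adjustment over the 3 ratios compared. St3gal1 to Gcnt1, which compete for core 1, differed by -0.65, and C1galt1c1 to C1galt1 by 0.25, both with an adjusted exact permutation p of 0.114. None of the 3 ratios passed the adjusted threshold. Ratios with Gcnt1 share the limit on its filtering given above.

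Of the 4 B3gnt enzymes tested, which extend chains with N-acetylglucosamine, only B3gnt7 was called. B3gnt7 (ENSMUSG00000079445, chr1:86302832-86307305, + strand), known for its part in keratan sulfate synthesis, had 79.5, 96.6, 91.8 and 97.1 normalized counts in 4T1-Sca1+ and 56.3, 51.3, 37.8 and 43.4 in 4T1-Sca1-. The groups did not overlap, and the log2 fold change was 0.95 ± 0.14 (adjusted p = 1.48e-05, edgeR). The abundant members B3gnt2 (0.01) and B3gnt3 (-0.08), which extends core 1, were not called, nor was B3gnt9 (0.15), with adjusted p from 0.190 to 0.882. B3gnt3 was called lower with GC-corrected offsets (-0.14, adjusted p = 0.00512) and without replicate 3 of 4T1-Sca1+ (-0.12, adjusted p = 0.0328). B3gnt2 held 38.4 to 41.8% and B3gnt3 54.2 to 57.9% of the family sum in 4T1-Sca1+ libraries. That sum was 55.3 ± 1.36 RPKM in 4T1-Sca1+ and 56.2 ± 2.16 in 4T1-Sca1-. B3gnt4 summed to 0 counts against 1.

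Of the 7 B4galt enzymes, which add galactose, 3 were higher, 1 was lower and 3 were not called. B4galt5 (ENSMUSG00000017929, chr2:167298444-167349183, - strand), which makes lactosylceramide and also acts on core 2 chains, had 3084, 3154, 3310 and 3142 normalized counts in 4T1-Sca1+ and 1737, 1815, 1613 and 1799 in 4T1-Sca1-. The groups were far apart against their spread, with a log2 fold change of 0.88 ± 0.05 (adjusted p = 5.30e-11, edgeR). B4galt5 made up 42.4 to 43.4% of the summed B4galt RPKM in 4T1-Sca1+ and 30.3 to 32.7% in 4T1-Sca1-. The family sum was 113 ± 4.36 RPKM against 83.3 ± 1.77.

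B4galt2 (ENSMUSG00000028541, chr4:117869260-117883487, - strand) had 988, 949, 1090 and 1000 normalized counts in 4T1-Sca1+ and 660, 720, 699 and 729 in 4T1-Sca1-, again with no overlap. Its log2 fold change was 0.53 ± 0.06 (adjusted p = 2.95e-07, edgeR), and 0.32 with GC-corrected offsets (adjusted p = 1.51e-06). It shares 1417 exonic bases with Ccdc24 on the same strand (116 normalized counts against 45.1) and 46 with Slc6a9 on the opposite strand (938 against 362), and how such reads were counted is not given in the sources used here. B4galt1, the main galactosyltransferase of most tissues and a subunit of lactose synthase in milk, rose by 0.22. B4galt4 decreased by 0.22 (adjusted p = 0.0215, edgeR). The call was lost with GC-corrected offsets (-0.15, adjusted p = 0.0812) and with library totals alone (-0.18, adjusted p = 0.0606). It was also lost without replicate 1 of 4T1-Sca1+ (-0.20, adjusted p = 0.0586) or without replicate 3 or 4 of 4T1-Sca1- (both -0.20, adjusted p = 0.0628 and 0.0627). B4galt3 (0.06), B4galt7 (0.02) and B4galt6 (-0.02), the second lactosylceramide synthase, were not called, with adjusted p from 0.359 to 0.874.

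All 9 sialyltransferases with counts were tested and called, 8 higher in 4T1-Sca1+ and 1 lower. With GC-corrected offsets 6 were higher, St3gal2 and St6galnac4 being lost. Over all genes tested, 31.3% were higher and 30.2% lower. Their median log2 fold change was 0.43, where the 24 other enzymes tested had 0.11, with 10 higher and 3 lower. At 1.5-fold or more, 4 of the 9 were higher, where 11.7% of all genes were. The St3gal enzymes, which place sialic acid on galactose, summed to 118 ± 3.47 RPKM in 4T1-Sca1+ and 87.8 ± 1.72 in 4T1-Sca1-. The 3 St6galnac enzymes, which place it on N-acetylgalactosamine, summed to 20.9 ± 0.644 and 14.8 ± 0.612. Neither sum overlapped between groups.

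St3gal1 (ENSMUSG00000013846, chr15:67102875-67176830, - strand), the main enzyme capping core 1, had 2407, 2613, 2554 and 2496 normalized counts in 4T1-Sca1+ and 1621, 1673, 1544 and 1728 in 4T1-Sca1-. The groups did not overlap, and the log2 fold change was 0.63 ± 0.05 (adjusted p = 4.43e-09, edgeR). St3gal2, which caps core 1 and gangliosides, stood at 29.2 RPKM in 4T1-Sca1+, where St3gal1 stood at 24.3, and rose by 0.18. With offsets corrected for GC content, the St3gal2 value was 0.03 and no longer called (adjusted p = 0.422).

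St3gal3 (ENSMUSG00000028538, chr4:117932154-118134914, - strand), which caps N-acetyllactosamine ends and makes sialyl Lewis precursors, had 394, 418, 430 and 422 normalized counts in 4T1-Sca1+ and 169, 212, 227 and 211 in 4T1-Sca1-. It was the sialyltransferase with the largest fold change, at 1.04 ± 0.08 (adjusted p = 8.50e-09, edgeR), and the groups did not overlap. It lies 48667 bases from B4galt2. St3gal4, which acts on the same kind of end and was the most abundant of the family per kilobase, rose by 0.42. Its exons share 412 bases with 4930581F22Rik on the opposite strand, which was itself higher (132 normalized counts against 71.4). St3gal5, the synthase of the ganglioside GM3, rose by 0.43.

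St3gal6, which also caps N-acetyllactosamine ends, was the only sialyltransferase to fall. It had 172, 135, 126 and 158 normalized counts in 4T1-Sca1+ and 194, 214, 224 and 169 in 4T1-Sca1-. Replicate 1 of 4T1-Sca1+ lay above replicate 4 of 4T1-Sca1-, so the groups overlapped. The log2 fold change was -0.42 ± 0.11 (adjusted p = 0.00323, edgeR). Its exons share 1603 bases with Dcbld2 on the opposite strand, which had 4201 normalized counts against 3602 and was called higher.

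St6galnac6 (ENSMUSG00000026811, chr2:32599709-32620806, + strand), known for gangliosides and disialyl Lewis a, had 632, 671, 794 and 725 normalized counts in 4T1-Sca1+ and 333, 380, 392 and 341 in 4T1-Sca1-. The groups did not overlap, with a log2 fold change of 0.98 ± 0.08 (adjusted p = 7.11e-09, edgeR). St6galnac4, which adds a second sialic acid to sialylated core 1, ends 11 bases upstream of St6galnac6 on the same strand. It had the smallest called change, 0.14 (adjusted p = 0.0351, edgeR), with 1091 normalized counts in replicate 1 of 4T1-Sca1+ and 902 to 982 in the other 7 libraries. Without that replicate the value was 0.09 (adjusted p = 0.152), and the call was also lost without replicate 1, 2 or 4 of 4T1-Sca1- (0.11 to 0.13, adjusted p from 0.0604 to 0.106). St6galnac6 made up 41.8 to 49.8% of the family sum in 4T1-Sca1+ and 31.6 to 34.3% in 4T1-Sca1-.

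St6galnac2 (ENSMUSG00000057286, chr11:116675303-116694868, - strand), which adds sialic acid to the first sugar of the O-glycan, had 82.3, 88.8, 97.7 and 91.9 normalized counts in 4T1-Sca1+ and 64.0, 56.5, 54.5 and 38.8 in 4T1-Sca1-. The groups did not overlap, and the log2 fold change was 0.75 ± 0.14 (adjusted p = 0.000171, edgeR). The count table lists this gene under 2 identifiers with identical counts, which were taken once. It shares 497 exonic bases with 1810032O08Rik on the opposite strand, which was lower in 4T1-Sca1+ (403 normalized counts against 498).

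**Figure D4:**
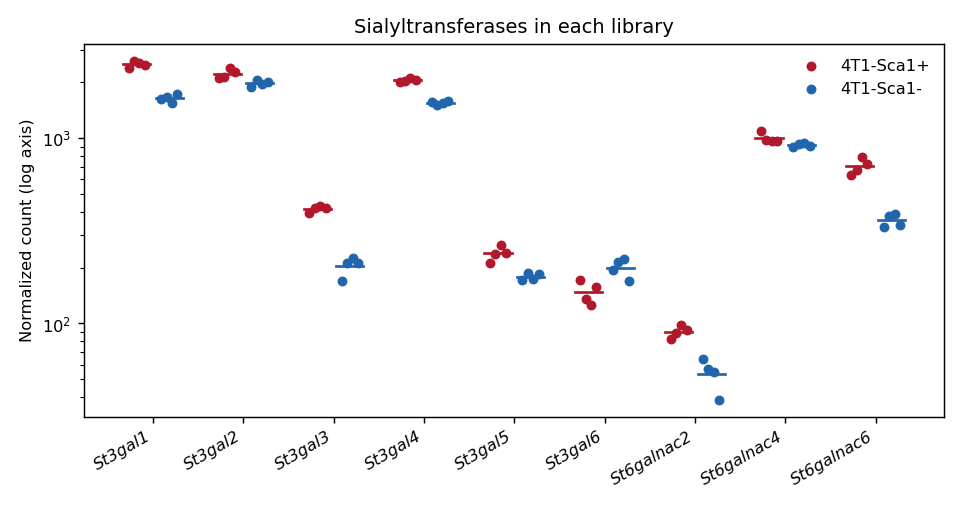
Normalized counts, on a log axis, of the 9 sialyltransferases in each 4T1-Sca1+ (red) and 4T1-Sca1- (blue) library. Points are libraries and lines are means of 4. St3gal3 and St6galnac6 show the widest gaps, St3gal6 is the one gene lower in 4T1-Sca1+, and its groups overlap.

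Genes around these families were taken from written lists. Of 18 tested genes that supply sugar nucleotides, 4 were higher and 2 lower, where 31.3% of all genes tested were higher and 30.2% lower. Galt (0.53), which feeds galactose into UDP-galactose, and Ugp2 (0.48), which makes UDP-glucose, rose, and Gmds decreased by 0.50 and Galk1 by 0.16. Cmas (-0.03) and Nans (0.0019), of the sialic acid branch, were not called. Of 9 listed genes of the Slc35 family of nucleotide-sugar transporters, 3 were higher, among them Slc35a5 (0.46) and Slc35d1 (0.27). The 2 lower were Slc35a4 (-0.43) and Slc35d2 (-0.39). Slc35a1, the transporter of CMP-sialic acid, was not called (-0.08).

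Capping and sulfating enzymes outside the families were called in 5 of 6 cases tested, 4 higher and 1 lower. Over all genes tested, 61.5% were called, 31.3% higher and 30.2% lower, and the list counts in this paragraph stand beside those shares. St6gal1, which puts sialic acid on N-glycans, had 1081 ± 30.8 normalized counts against 591 ± 18.5 and a log2 fold change of 0.88 ± 0.05 (adjusted p = 1.39e-10, edgeR). B4galnt4 (0.52) rose and its relative B4galnt3 (-0.63) fell. Of 9 sialidases and glycosidases, 3 were higher, among them the lysosomal sialidase Neu1 (0.50), and 1 was lower, Fuca2 (-0.27). Of 12 N-glycan branching genes, 5 were higher and 2 lower. Mgat3, which adds the bisecting N-acetylglucosamine, rose by 1.68 and Man2a2 by 0.95, while Mgat4a decreased by 0.31 and Mgat1 by 0.17. The relatives B3gntl1 (-0.01) and Mucl3 (-0.40), outside the rule by name, were tested and not called.

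Lists of carriers and readers of O-glycans stand beside 31.3% higher and 30.2% lower over all genes tested. Of 11 other mucin-domain glycoproteins tested, 4 were higher and 3 lower. Spn, which encodes the sialomucin CD43, had 657 ± 34.0 normalized counts against 222 ± 24.8 and a log2 fold change of 1.58 ± 0.08 (adjusted p = 9.70e-12, edgeR). Podxl rose by 0.22, and Cd44 decreased by 0.52 and Lamp1 by 0.19. Of 6 galectin genes tested, which encode or bind lectins for galactose, 3 were higher and 3 lower. Lgals3bp (1.14) and Lgals9 (0.71) rose, and Lgals3 (-0.25) and Lgals8 (-0.17) fell.

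Some markers of other cells differed between the groups as well. Of 12 leukocyte markers, 7 had counts, and they summed to 167 to 179 normalized counts in 4T1-Sca1+ and 74.5 to 113 in 4T1-Sca1-. The 2 tested, Cd74 (125 against 65.5) and Csf1r (39.8 against 17.8), were higher and made up most of that sum. Ptprc, which defines leukocytes, had 2.32 ± 0.788 against 0.535 ± 0.619, and no library held more than 2 counts of Cd3e or Lyz2. Of 10 fibroblast markers, 8 had counts, and they summed to 3101 to 3320 against 2282 to 2637, with 3 of 4 tested higher. Most of that sum was Sparc (2543 against 2012) and Pdgfra (560 against 364). Col1a1 (47.6 against 28.6) was also higher, and Postn (24.7 against 24.2) was not called. The others were below the filter. Dcn (11.4 against 1.06) and Pdgfrb (6.19 against 0.257) had more in 4T1-Sca1+, Fap (0.958 against 2.96) had less, and Col1a2 stood at 4.43 against 4.61. Of 7 endothelial markers, 5 had counts, and they summed to 33.8 to 40.9 against 42.3 to 63.9. Most of that sum was Tie1 (25.3 against 39.0), the 1 tested, which was lower. Below the filter, Esam (5.71 against 8.49) had less in 4T1-Sca1+ and Pecam1 (5.01 against 1.04) had more. The part of other cells in the values above was not tested, and in bulk libraries fewer cells of a type and less RNA per cell cannot be told apart.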

How the data were processed

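RNA was measured by sequencing in 8 libraries, 4 of 4T1-Sca1+ and 4 of 4T1-Sca1-, grouped by the titles in the labels. Per the labels, libraries were made with a TruSeq RNA kit, which does not mark strand. The submitters' processing notes name cutadapt 1.16, STAR 2.5.3a and GRCm38 (mm10). The counter, the annotation and the handling of overlapping genes are not given in the sources used here. Raw counts of 16341 genes were deposited by the authors, beside normalized signal of 15372 genes, whose values equalled the counts divided by DESeq2 size factors (largest relative difference 5e-15).

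Counts were tested with edgeR 4.0.16 in R 4.3.3 (TMM, filterByExpr, glmQLFit and glmQLFTest, two-sided, no covariate), with Benjamini-Hochberg adjustment over 11717 genes. Ratios were tested with an exact permutation test in scipy 1.17.1 over 70 relabellings. Symbols, positions and exon lengths came from GENCODE M21 on GRCm38, which lacked 141 of the identifiers, and promoters from RefSeq without chromosome 18. RPKM was computed here from counts over the union of exons and TMM-scaled library sizes. The edgeR test was checked on simulated data with known changes.

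Values in every library are given for mucins tested, for called enzymes with an absolute log2 change of 0.5 or more, and for C1galt1, C1galt1c1, Gcnt1 and St3gal1. St3gal6 and St6galnac4 were added after their values were seen, as were the not-called list genes Cmas, Nans, Slc35a1, B3gntl1 and Mucl3. From each list, up to 2 highest and 2 lowest called genes averaging 50 normalized counts or more are named, except 1 gene that is not reported here. The genes, lists and tests were chosen with earlier results of these data known. Since the reads carry no molecular identifiers, PCR copies are not separate molecules and intervals and floors cover counting error only. Alternatives were DESeq2 1.42.0 and its size factors, library totals, GC-corrected offsets, no filter, at least 10 counts in every library, limma-voom and limma 3.58.1 on log2(value + 1) of the deposited signal, a replicate block, leaving out each library, an adjusted p under 0.01 and a change of 2-fold or more. Counts of sialyltransferases, under all but the last 2 of these, were added after seeing the data.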

Additional observations from a re-analysis of the deposited data

Results flagged for a closer look

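In 4 of 70 tests, each a gene in a group of 4 libraries, a single library stood apart from the other 3 by Dixon's criterion, where chance alone gives about 1 in 20, or 3.5. B4galt3 had 907 normalized counts in replicate 3 of 4T1-Sca1+ and 793 to 808 in the other libraries of that group, and B4galt7 had 460 in the same library and 363 to 372 in the others. St6galnac4 had 1091 in replicate 1 of 4T1-Sca1+ and 969 to 982 in the others. Galnt7 had 837 in replicate 4 of 4T1-Sca1- and 912 to 917 in the others. Of these 4 genes only St6galnac4 was called between the groups.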

How the results depend on the processing

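Of the 24 genes called, 20 kept their call and direction under each alternative in which they were tested, at most 17, stricter thresholds aside. St6galnac4 lost its call in 10, C1galt1c1 in 8, B4galt4 in 5 and St3gal2 in 1 (GC-corrected offsets); no called gene changed sign. A filter of at least 10 counts in every library left 1 mucin and 16 enzymes higher, since Muc4, Galnt15 and Gcnt1 were no longer tested. Asking for a change of 2-fold or more left 1 mucin and 3 enzymes higher and 0 lower. Leaving out each library in turn gave 2 mucins and 16 to 18 enzymes higher and 3 to 5 enzymes lower. Sialyltransferases higher numbered 6 with GC-corrected offsets. With the replicate block, 2 mucins and 17 enzymes were higher and 4 enzymes were lower. Each adjusted exact p of the ratios was then 0.25, but 4 pairs allow no exact p under 0.125, so the blocked ratio test could not pass. Deviations of same-numbered libraries correlated at -0.15 to 0.10, so replicate numbers were not taken as pairs.

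Values that changed sign belonged to 6 genes not called. With GC-corrected offsets they were -0.0146 for B3gnt9, -0.11 for B4galt7, 0.0499 for B4galt6 and 0.0085 for Galnt7; with library totals alone 0.0196 for B4galt6. With DESeq2 size factors, no filter, DESeq2 and limma on the deposited signal, B3gnt2 was at -0.0043, -0.0048, -0.0045 and -0.0036, and C1galt1 at -0.0053, -0.0057, -0.0060 and -0.0109. Leaving out single libraries gave -0.0672 to 0.0527 for B4galt7, -0.0079 to 0.0179 for B3gnt2, -0.0455 to 0.0492 for C1galt1 and -0.0960 to 0.0157 for B4galt6. GC-corrected offsets also raised C1galt1 to 0.16 (adjusted p = 0.0373, edgeR) and called Galnt4 higher (0.22) and B3gnt3 lower (-0.14). The cause was not tested. At these depths, differences in genes with a few counts a library could not be detected.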
